A study of Danio rerio with 2 samples.

Results

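*thbs4a*+ ligamentocytes were taken from the *trps1:eGFP*-enriched library as cells with at least 2 UMIs of *thbs4a* and fewer than 2 summed UMIs of *prg4b* and *vcana*, the marker pair of superficial articular chondrocytes. This gave 78 of the 3919 cells that passed the cell filter in that library (1.99%, 95% Clopper-Pearson interval 1.58% to 2.48%), and they were set against the other 3841 cells. A UMI is a molecular tag that marks 1 captured RNA molecule, and CPM (counts per 1000000) is the number of UMIs of a gene in every 1000000 UMIs summed over a group of cells. The cell filter kept barcodes with 500 to 2000 detected genes and at most 5% of UMIs on mitochondrial genes.

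The cells came from 50 microdissected jaw joints, pooled, of zebrafish aged 3 months that carried both *sox10:DsRed* and *trps1:eGFP*. The *sox10* reporter labels some chondrocytes, and the paper also found its transcript in neurons and in few osteoblasts. By contrast, *trps1:eGFP* is a wide marker of joint mesenchyme that also takes in the chondrocytes of the joint surface. Live cells were sorted by fluorescence into a GFP-positive and a DsRed-positive fraction, each of which became 1 droplet library of 3′ ends. With 1 library per sort there is no replicate and no test: intervals here are exact 95% Poisson intervals for CPM and Clopper-Pearson intervals for shares, and both cover counting error only.

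The *trps1:eGFP*-enriched library had 17424489 UMIs over 4876 barcodes, and its kept cells had a median of 3648 UMIs and 997 genes. In the *sox10:DsRed*-enriched library, 1073482 UMIs fell on 462 barcodes, and the median was 2587.5 UMIs over the 242 cells kept. That library gave 0 cells that met the rule, which by a floor of 3 cells of 242 allows a share of up to 1.24%, and only 1 of its cells had a single *thbs4a* UMI. The libraries shared 16 barcodes, none of which was a ligamentocyte.

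Ligaments and tendons are ropes of parallel collagen I fibrils laid down by a sparse population of fibroblasts, called ligamentocytes where the tissue joins bone to bone. Scleraxis, a bHLH transcription factor, marks the lineage from early development, and tenomodulin, a transmembrane glycoprotein, marks its differentiated cells. Small leucine-rich proteoglycans coat the fibrils and set their diameter and spacing, lysyl oxidases cross-link them, and thrombospondin-4, the protein that *thbs4a* encodes, is a pentameric matrix protein of the attachment sites and the fibril surface.

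The cells were selected on their measured *thbs4a*, *prg4b* and *vcana* UMIs, so the values of these genes only describe them. Ligamentocytes held 2 to 73 *thbs4a* UMIs each, with a median of 6, and together 768 of the 850 UMIs of that gene in the kept cells (90.4%). The distribution was skewed, since the 10 cells with the most *thbs4a* carried 317 of these UMIs (41.3%). Relative to depth, *thbs4a* ran from 2.56 to 135 UMIs in every 10000 UMIs of a cell, with a median of 15.9. The *prg4b* and *vcana* limit removed no cell, and a single ligamentocyte had 1 UMI of either gene.

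Choosing on a UMI count can favour deep cells, but depth differed little. Ligamentocytes had 1285 to 8918 UMIs (median 3970) and 516 to 1925 genes (median 1030.5), against 925 to 16252 UMIs (median 3644) and 500 to 1997 genes (median 996) in the other cells. The median mitochondrial share was 0.624% in ligamentocytes and 0.636% in the other cells.

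The other ligament markers, *tnmd* and *scxa*, were both enriched, and their UMIs were not used to select the cells. The paper marks its ligamentocytes by *scxa* and *thbs4a* in these same data, so this is not independent support for the label. *tnmd* (tenomodulin) had 0 to 23 UMIs per cell with a median of 2 in ligamentocytes, and 0 to 18 with a median of 0 in the other cells. Its level was 1012 CPM (interval 906 to 1128) in ligamentocytes and 39.9 CPM (36.9 to 43.2) in the other cells, a log2 fold of 4.36 after 10 CPM was added to both, as in all folds given here. At least 1 *tnmd* UMI was found in 66.7% of ligamentocytes (55.1% to 76.9%) and in 7.13% of the other cells (6.34% to 7.99%). In the 399 *epcam*+ epithelial cells of the library, which should lack the gene and had a median of 5636 UMIs, the share was 2.01%.

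*scxa* (scleraxis) was sparser, with at most 3 UMIs in any cell. Its level was 92.0 CPM (62.1 to 131) in ligamentocytes and 5.46 CPM (4.37 to 6.74) in the other cells, a log2 fold of 2.72. It was detected in 28.2% of ligamentocytes (18.6% to 39.5%), in 1.87% of the other cells and in 0.752% of *epcam*+ cells. With every cell thinned to 1000 UMIs, which left out 0 ligamentocytes and 5 other cells, the expected share was 10.6% of ligamentocytes and 0.628% of the other cells for *scxa*, and 47.8% of ligamentocytes and 3.05% of the other cells for *tnmd*.

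Detection of the markers was not uniform within the population. Both *scxa* and *tnmd* were found in 19 ligamentocytes, *tnmd* alone in 33, *scxa* alone in 3 and neither in 23 (29.5%). Of the other cells, 16 had both and 3511 (91.4%) had neither. The label of ligamentocyte therefore rested on all 3 markers for 19 cells and on *thbs4a* alone for 23 cells at this depth.

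The 14 cells with exactly 2 *thbs4a* UMIs, just inside it, had 379 CPM of *tnmd*, 19.9 CPM of *scxa* and 5600 CPM of *col1a1a*. The 81 cells with exactly 1 UMI and fewer than 2 *prg4b* and *vcana* UMIs, just outside it, had 94.1 CPM of *tnmd*, 16.1 CPM of *scxa* and 4521 CPM of *col1a1a*. The 3687 cells with no *thbs4a* UMI and the same *prg4b* and *vcana* limit had 39.3, 5.30 and 3732 CPM of these genes. Within the population, *tnmd* stood at 379 CPM in cells with 2 *thbs4a* UMIs, 930 CPM with 3 to 4, 872 CPM with 5 to 9 and 1374 CPM with 10 or more. *scxa* had 19.9, 87.2, 67.1 and 136 CPM in the same bins. Among the ligamentocytes, those with exactly 2 *thbs4a* UMIs were thus the lowest for *tnmd*, *scxa* and *col1a1a*, though *scxa* rested on 1 UMI there.

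**Figure D1:**
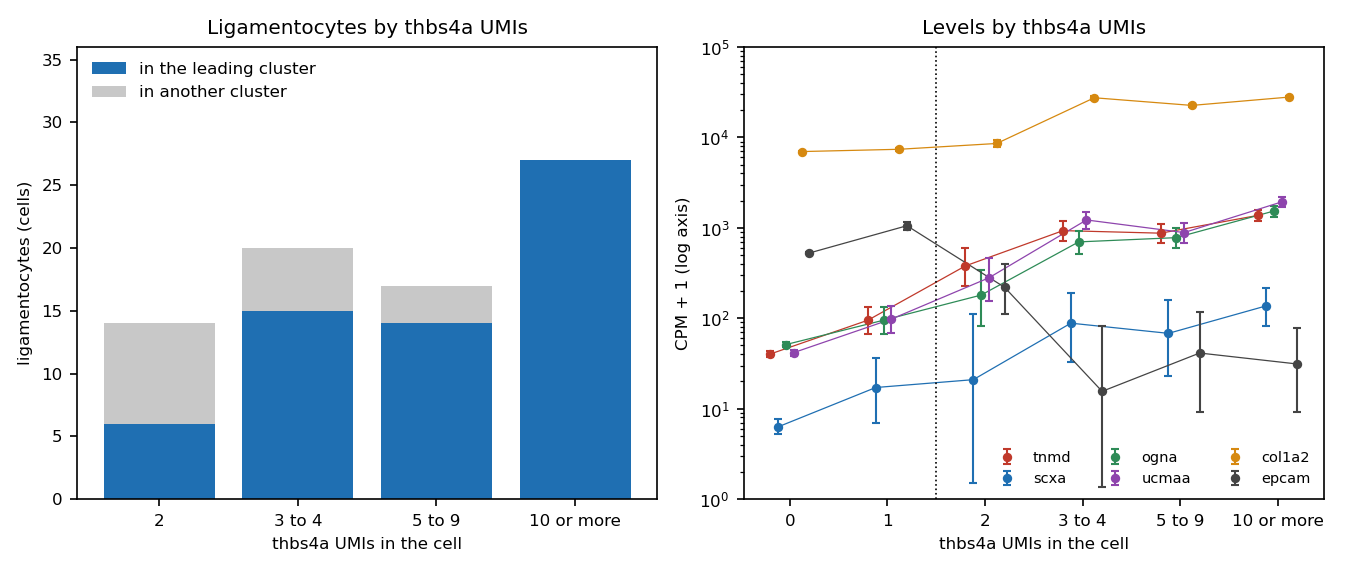
Left, number of ligamentocytes by the *thbs4a* UMIs in the cell, split by whether the cell fell in the cluster that holds most of them. Right, level of 6 genes (CPM + 1, log axis, points with exact 95% Poisson intervals) in kept cells by *thbs4a* UMIs, with the dotted line at the selection threshold; all 27 cells with 10 or more UMIs lay in the leading cluster, against 6 of the 14 cells with 2.

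Across all genes, 7513 had at least 5 CPM over the kept cells and were compared. Ligamentocytes counted toward this limit, so a gene rare in the other cells could pass it only by being high in ligamentocytes. *cthrc1b*, *vwde*, *meox1* and *omd*, described below, passed in this way, and the number of higher genes depends in part on it. At least a 2-fold difference counted as a call, and 270 genes were higher (3.59%) and 443 lower (5.90%) in ligamentocytes than in the other cells, with a median log2 fold of −0.08 over all genes compared. The intervals of both groups were apart for all 270 higher genes and for 342 of the 443 lower ones. Some calls rested on 1 cell: without the ligamentocyte that held most UMIs of the gene, 169 of the 270 higher genes kept a 2-fold difference, among them each of the 25 genes with the highest folds described here. Of the 70 higher genes in the named set, *egr2b*, *rgs5a*, *clec3bb*, *adamts2*, *p4ha1b*, *ecm2*, *ctgfb* and *fkbp10b* did not.

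**Figure D2:**
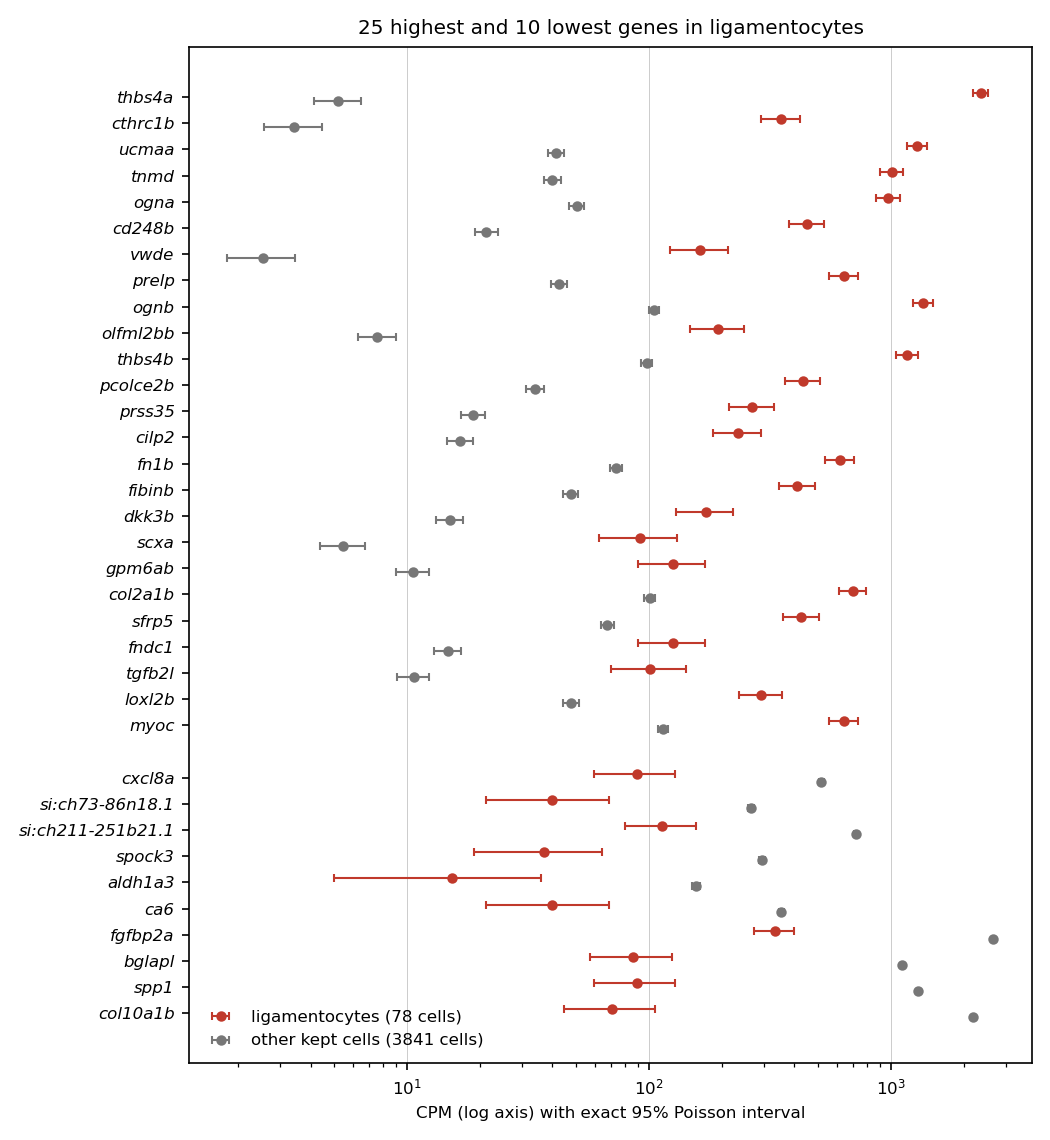
The 25 genes with the highest and the 10 with the lowest fold in ligamentocytes against the other kept cells, among genes found in at least 25% of ligamentocytes (highest) or of other cells (lowest). Points are CPM on a log axis with exact 95% Poisson intervals, in red for 78 ligamentocytes and in grey for 3841 other cells; *thbs4a*, which chose the cells, tops the list, followed by *cthrc1b* at 353 CPM against 3.43 CPM.

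The list of tendon regulators had 10 genes compared, of which 5 were higher and 0 lower, with a median log2 fold of 1.03. Counts in this and the following lists stand beside 3.59% higher and 5.90% lower over all genes compared. Besides *scxa*, *meox1*, a homeobox gene of the somite and its connective tissue derivatives, had 166 CPM (124 to 216) in ligamentocytes and 3.81 CPM (2.91 to 4.90) in the other cells, a log2 fold of 3.67. It was found in 23.1% of ligamentocytes and 1.17% of the other cells, and 17 of its 54 UMIs came from 1 cell. *meox2a* had 61.4 CPM in ligamentocytes and 18.4 CPM in the other cells, and *six1a*, a homeobox gene of muscle and tendon development, had 55.2 CPM in ligamentocytes and 17.1 CPM in the other cells. *egr2b*, a zinc finger factor of the family that drives tendon collagen genes in mice, also passed 2-fold at 110 CPM in ligamentocytes and 11.2 CPM in the other cells, but 31 of its 36 UMIs came from 1 cell and its log2 fold was 0.28 without it. *mkxa*, an orthologue of the mouse tendon homeobox gene *Mkx*, was below the limit for comparison, with 10 UMIs in ligamentocytes (30.7 CPM) and 4.32 CPM in the other cells. *egr1*, an immediate early gene that also acts in tendon, was not enriched, with 163 CPM in ligamentocytes and 211 CPM in the other cells.

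Of 23 genes compared in the list of tendon and ligament matrix proteins, 11 were higher and 0 lower, with a median log2 fold of 0.90. *thbs4b*, the paralogue of the selecting gene, was found in 84.6% of ligamentocytes, 18.6% of the other cells and 3.01% of *epcam*+ cells. It had 0 to 41 UMIs per cell with a median of 4 in ligamentocytes, against 0 to 18 with a median of 0 in the other cells, and 1169 CPM (1054 to 1292) in ligamentocytes, against 97.9 CPM (93.0 to 103) in the other cells. The paralogues could share misassigned reads in near-identical stretches, which was not tested. The bins below were cut on *thbs4a* UMIs, so their *thbs4a* levels only describe them. In ligamentocytes with 5 to 9 *thbs4a* UMIs, *thbs4b* had 1623 CPM and *thbs4a* 1596 CPM, and in those with 10 or more *thbs4b* had 1291 CPM and *thbs4a* 4190 CPM. The 77 cells of the *coch*+ class defined below had 448 CPM of *thbs4b* and a single *thbs4a* UMI among them. That class was limited to cells with fewer than 2 *thbs4a* UMIs, so its low *thbs4a* is partly built in. The thrombospondin genes *thbs1b*, *thbs2b* and *thbs3a* were each higher too, with log2 folds of 1.79, 1.85 and 1.96. In the list of tenascins and other thrombospondins, 4 of 6 genes compared were higher and 0 lower, and its median log2 fold was 1.82.

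Among the remaining matrix genes of this list, *cilp2*, a cartilage intermediate layer protein, had 233 CPM in ligamentocytes and 16.6 CPM in the other cells. *angptl7*, a secreted angiopoietin-like protein, was among the most abundant transcripts, with 0 to 293 UMIs per cell and a median of 23 in ligamentocytes, against 0 to 280 and a median of 1 in the other cells. Its summed level was 11581 CPM in ligamentocytes and 2287 CPM in the other cells, so the gene was strong in ligamentocytes without being restricted to them. *abi3bpb* and *tgfbi*, which encode matrix proteins that bind collagen, had log2 folds of 2.00 and 2.02. *cnmd*, the chondromodulin gene and the closest relative of *tnmd*, had 0 UMIs in ligamentocytes and 9.59 CPM in the other cells. A floor of 3 UMIs is 9.20 CPM in ligamentocytes, so this depth could not show a lower level.

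Collagen I genes took 4.74% of all UMIs of ligamentocytes and 1.42% of those of the other cells. Per cell, the share ran from 0.0892% to 13.9% with a median of 5.01% in ligamentocytes, and from 0% to 35.5% with a median of 0.365% in the other cells, so other cells held the extreme values. *col1a2* had a median of 77.5 UMIs per ligamentocyte and 7 UMIs per other cell. *col1a1a* was at 14646 CPM in ligamentocytes and 3725 CPM in the other cells, *col1a2* at 23638 CPM in ligamentocytes and 6945 CPM in the other cells, and *col1a1b* at 9118 CPM in ligamentocytes and 3578 CPM in the other cells. Collagen XII, which sits on fibril surfaces, was higher through both *col12a1a* (985 CPM in ligamentocytes, 272 CPM in the other cells) and *col12a1b* (528 CPM in ligamentocytes, 144 CPM in the other cells), and *col5a1*, which nucleates collagen I fibrils, had 1365 CPM in ligamentocytes and 507 CPM in the other cells. In all, 6 of 16 fibril collagen genes compared were higher and 1, *col5a2b*, was lower with 0 UMIs in ligamentocytes and 27.2 CPM in the other cells, which makes it at least 2.96-fold lower.

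Small leucine-rich proteoglycans had the highest share of higher genes after the thrombospondins, with 8 of 13 higher, 2 lower and a median log2 fold of 1.45. *ogna* and *ognb* encode the osteoglycins. *ogna* had 976 CPM (871 to 1089) in ligamentocytes and 50.4 CPM (46.9 to 54.0) in the other cells, and *ognb* had 1362 CPM (1238 to 1495) in ligamentocytes and 105 CPM (100 to 110) in the other cells. *prelp*, which anchors basement membrane to matrix, reached 638 CPM in ligamentocytes and 42.4 CPM in the other cells. *lum* (lumican) was found in 96.2% of ligamentocytes at 5341 CPM, against 69.5% of the other cells at 1043 CPM. *aspn*, *dcn*, *omd* and *ecm2* were the other higher members, with log2 folds of 1.80, 1.45, 2.75 and 1.07. The count of 8 includes *omd*, which passed the limit for comparison only through ligamentocytes. It had 3.71 CPM in cells with no *thbs4a* UMI. Of its 27 UMIs in ligamentocytes, 9 came from 1 cell, and its log2 fold was 2.25 without that cell. Without the cell with most of its UMIs, *ecm2* had a log2 fold of 0.86 and was not called. The family did not move as a block, because *fmoda* (fibromodulin) had 6.14 CPM in ligamentocytes and 39.9 CPM in the other cells, and *bgnb* (biglycan) 9.20 CPM in ligamentocytes and 65.7 CPM in the other cells.

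Collagen processing followed the collagens in part, with 8 of 28 genes higher, 1 lower and a median log2 fold of 0.49. The lysyl oxidases *loxa* and *loxl2b* stood out, with 571 CPM in ligamentocytes and 108 CPM in the other cells for *loxa*, and 291 CPM in ligamentocytes and 47.8 CPM in the other cells for *loxl2b*. The lysyl hydroxylase gene *plod2* and the prolyl hydroxylase gene *p4ha2* had log2 folds of 1.66 and 1.37. *sparc*, a collagen-binding matricellular protein, had a UMI in every ligamentocyte, with 5 to 207 UMIs per cell (median 56) in ligamentocytes and 0 to 632 (median 8) in the other cells. *pcolce2b*, an enhancer of procollagen cleavage, had 433 CPM in ligamentocytes and 34.0 CPM in the other cells.

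The gene with the highest fold after *thbs4a* was *cthrc1b*, a collagen triple helix repeat gene, with 353 CPM (291 to 423) in ligamentocytes and 3.43 CPM (2.58 to 4.47) in the other cells, a log2 fold of 4.76. It was found in 33.3% of ligamentocytes, 0.729% of the other cells and 0.251% of *epcam*+ cells, and at 1000 UMIs its expected share was 20.01% in ligamentocytes and 0.309% in the other cells. *ucmaa*, a Gla protein gene named for unique cartilage matrix, came next with 1289 CPM (1168 to 1418) in ligamentocytes and 41.3 CPM (38.2 to 44.6) in the other cells. It was found in 55.1% of ligamentocytes and 6.69% of the other cells, and in 6.52% of *epcam*+ cells, where its level was 12.0 CPM. *cd248b* (endosialin, a stromal surface protein) had 451 CPM in ligamentocytes and 21.3 CPM in the other cells, and *vwde* 163 CPM in ligamentocytes and 2.54 CPM in the other cells.

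Of 8 cartilage markers compared, 2 were higher and 2 lower, with a median log2 fold of 0.01. Over all genes compared, 3.59% were higher and 5.90% lower. *ucmaa* was 1 of the higher ones, and the other was *col2a1b*, a collagen II gene, at 696 CPM in ligamentocytes and 101 CPM in the other cells, found in 79.5% of ligamentocytes. *hapln1a*, which links aggrecan to hyaluronan, was lower at 454 CPM in ligamentocytes and 1247 CPM in the other cells. *acana* and *col9a1a* had 0 UMIs in ligamentocytes and were below the limit for comparison, and *sox9a*, the chondrogenic regulator, had 36.8 CPM (19.02 to 64.3) in ligamentocytes and 22.0 CPM (19.8 to 24.5) in the other cells.

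Signalling genes were mixed. In the TGF-beta and BMP list 4 of 34 genes were higher and 5 lower, with a median log2 fold of 0.01, near that of all genes. The higher ones were *tgfb3* (703 CPM in ligamentocytes, 197 CPM in the other cells), *tgfb2* (95.1 CPM in ligamentocytes, 28.0 CPM in the other cells), the receptor gene *tgfbr2b* and the BMP antagonist *nog3*. *bmp4*, *bambib*, *fsta*, *fstb* and the BMP target *id2b* were the lower ones, with *id2b* at 58.3 CPM in ligamentocytes and 311 CPM in the other cells. *tgfb2l*, outside that list, had 101 CPM in ligamentocytes and 10.7 CPM in the other cells. Of the 33 IGF, FGF, Wnt and PDGF genes compared, 3 were higher and 4 lower, beside 3.59% higher and 5.90% lower over all genes compared. The 3 higher ones encode secreted proteins of Wnt antagonist families: *frzb* with 178 CPM in ligamentocytes and 14.4 CPM in the other cells, *dkk3b* with 172 CPM in ligamentocytes and 15.1 CPM in the other cells, and *sfrp5* with 426 CPM in ligamentocytes and 67.3 CPM in the other cells. Such genes did not all go this way, since *sfrp2* had 288 CPM in ligamentocytes and 447 CPM in cells with no *thbs4a* UMI. *igf2a*, *igfbp1a*, *igfbp7* and *fgfbp2a* were the 4 lower ones, and *fgfbp2a*, an FGF-binding protein gene, had 331 CPM in ligamentocytes and 2637 CPM in the other cells.

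Of 9 load-responsive genes compared, 3 were higher and 1 lower. For this and the other lists below, the shares over all genes compared were 3.59% higher and 5.90% lower. *ctgfa* and *cyr61*, targets of YAP in mechanically loaded cells, had 1163 and 2341 CPM in ligamentocytes, against 310 and 859 CPM in the other cells, while *cyr61l1* had 3.07 CPM in ligamentocytes and 38.4 CPM in the other cells. *ctgfa* was found in 43.6% of ligamentocytes, fewer than the 85.9% for *cyr61*. *ctgfb* also passed 2-fold, with a log2 fold of 1.07, but had 0.77 without the cell with most of its UMIs. *itga11a*, the alpha subunit of a collagen I receptor, and *itgbl1* were the only 2 of 14 integrin list genes that were higher, and 4 were lower. The integrin genes *itga6b* and *itgb4* were called lower, but had log2 folds of 0.14 and 1.30 with *epcam*+ cells left out of the other cells only. A ligamentocyte with 10 *epcam* UMIs, described below, stayed in this comparison, and these genes were not tested without it. *fn1b* (fibronectin) was the only higher gene of 12 in the elastic fibre list, with 617 CPM in ligamentocytes and 73.2 CPM in the other cells. Among matrix proteases and inhibitors, *mmp2* (3347 CPM in ligamentocytes, 709 CPM in the other cells), its activator *mmp14a* and the inhibitor *timp2a* were higher, and *mmp9*, *mmp30* and *mmp13b* were lower. Without *epcam*+ cells among the other cells only, the log2 fold of *mmp30* was 0.68, again with the *epcam*-rich ligamentocyte kept. *mmp13b*, a collagenase gene of pre-osteoblasts, had 0 UMIs in ligamentocytes and 54.1 CPM in the other cells, which makes it at least 5.88-fold lower.

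**Figure D3:**
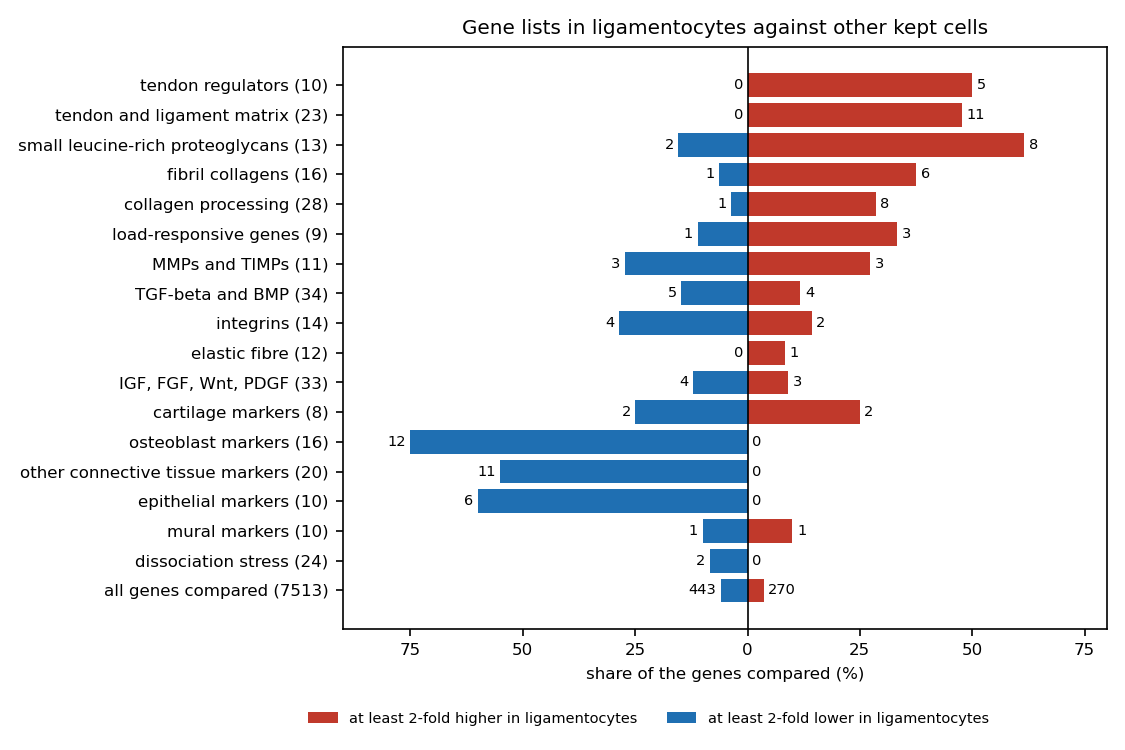
Share of the genes compared in each list that were at least 2-fold higher (red, right) or lower (blue, left) in ligamentocytes than in the other kept cells, with the number of genes at the bar ends and the number compared in parentheses. The bottom bar gives all 7513 genes; 8 of 13 small leucine-rich proteoglycans were higher, and 12 of 16 osteoblast markers were lower.

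Markers of other cell types differed by type. Of 16 osteoblast markers compared, 12 were lower and 0 higher (median log2 fold −1.52). *bglap* (osteocalcin) had 1 UMI in all ligamentocytes (3.07 CPM) and 2749 CPM in the other cells. *col10a1b*, *spp1* and *bglapl* were the 3 lowest genes of the ranking, with 70.6, 89.0 and 85.9 CPM in ligamentocytes, against 2187, 1298 and 1114 CPM in the other cells. They were still found in 26.9%, 26.9% and 28.2% of ligamentocytes, against 27.8%, 35.8% and 31.1% of the *epcam*+ cells, which were deeper. Whether these UMIs were background was not tested. Markers that define other connective tissue clusters were also lower in 11 of 20 cases and higher in 0, for example *coch* (9.20 CPM in ligamentocytes, 156 CPM in the other cells), *pcm1* and *c7b*. Such clusters were defined in these same data, so low values outside them are partly built in and only describe the cells. Over all genes compared, 5.90% were lower and 3.59% higher.

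Of the 22 muscle markers in the files, 18 had 0 UMIs in ligamentocytes, and their summed level was 15.3 CPM in ligamentocytes and 12.4 CPM in the other cells. The 12 endothelial markers summed to 46.0 CPM in ligamentocytes and 92.3 CPM in the other cells, and the 14 glial and neuronal markers to 24.5 CPM in ligamentocytes and 31.4 CPM in the other cells. Of 10 mural markers compared, *rgs5a* was higher and *notch3* lower. Of 24 dissociation stress genes, 0 were higher and 2 lower, beside 3.59% higher and 5.90% lower over all genes compared. Their median log2 fold was −0.38, against −0.08 over all genes compared. Of the 20 cell cycle genes, 4 could be compared and 0 were called, and 11 had 0 UMIs in ligamentocytes.

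Epithelial markers were lower in 6 of 10 cases and higher in 0, but this depended in part on the *epcam*+ cells among the other cells. A single ligamentocyte held 10 of the *epcam* UMIs and 339 of the 380 *krt5* UMIs of the whole population; it had 7816 UMIs, 2 *thbs4a* UMIs and lay outside the leading cluster. The other 77 ligamentocytes had 129 CPM of *krt5* (92.5 to 175) and 28.3 CPM of *epcam* (12.9 to 53.7), against 175 and 34.7 CPM in other cells with fewer than 2 *epcam* UMIs. *cldni*, a claudin gene, had 135 CPM (97.8 to 182) in these ligamentocytes and 69.3 CPM in those other cells.

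The reporters did not set the cells apart. *EGFP* was found in 50.0% of ligamentocytes (38.5% to 61.5%) and 42.7% of the other cells, at 175 CPM (132 to 227) in ligamentocytes and 177 CPM (171 to 184) in the other cells. The endogenous *trps1* transcript had 6 UMIs in ligamentocytes (18.4 CPM, 6.76 to 40.1) and 13.5 CPM in the other cells. DsRed had 0 UMIs in ligamentocytes and 0.889 CPM in the other cells.

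Ligamentocytes were then placed in a clustering of all kept cells of the library from which *thbs4a*, *prg4b* and *vcana* had been left out as features. Of 14 clusters, a cluster of 375 cells held 62 of the 78 (79.5%), and ligamentocytes made up 16.5% of it. A cluster of 567 cells, led by *hspb1* and *clu*, held another 12, and the last 4 were spread over 4 clusters. Leaving *scxa* and *tnmd* out of the features as well put the same number, 62, in the leading cluster. At a resolution of 1.5, 53 ligamentocytes shared a cluster of 87 cells, of which they were 60.9%. Cluster values describe the cells and are not tests, because the same genes built the clusters.

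The 16 ligamentocytes outside the leading cluster had 2 to 8 *thbs4a* UMIs with a median of 2.5, against 2 to 73 with a median of 8 inside it. Several ligament genes were mostly found in the ligamentocytes inside: *tnmd* had 1296 CPM inside and 27.4 CPM outside, *ogna* 1253 CPM inside and 13.7 CPM outside, *cd248b* 581 CPM inside and 0 UMIs outside, *scxa* 115 CPM inside and 13.7 CPM outside, and *ctgfa* 1494 CPM inside and 13.7 CPM outside. Other genes were shared between both sets. *thbs4b* had 1372 CPM inside and 466 CPM outside, *ognb* 1585 CPM inside and 589 CPM outside, *prelp* 763 CPM inside and 206 CPM outside, and *angptl7* 12803 CPM inside and 7346 CPM outside. The outside values of these 4 genes were above those of the library's other cells. Those of *tnmd*, *ogna*, *cd248b* and *ctgfa* were not, and the outside level of *scxa* rested on 1 UMI. *col1a1a* had 17775 CPM inside and 3796 CPM outside, near the 3732 CPM of cells with no *thbs4a* UMI. The 16 cells outside are thus called ligamentocytes by the selection rule, and their other values were mixed. As a group, their *tnmd* (2 UMIs) and *col1a1a* levels do not bear the name out. By contrast, *col1a2* had 9553 CPM outside and *lum* 2412 CPM outside, above the 6973 and 1054 CPM of cells with no *thbs4a* UMI. Genes higher outside included *hapln1a* (107 CPM inside, 1658 CPM outside) and the secreted Wnt modulator *sfrp2* (87.0 CPM inside, 987 CPM outside).

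Inside the leading cluster, ligamentocytes differed from the cluster's other 313 cells. *cthrc1b* had 443 CPM in ligamentocytes and 17.5 CPM in the cluster's other cells, *myoc* (myocilin) 708 CPM in ligamentocytes and 43.1 CPM in those cells, *angptl7* 12803 CPM in ligamentocytes and 1629 CPM in those cells, and *thbs4b* 1372 CPM in ligamentocytes and 230 CPM in those cells. The cluster's other cells had more *fgfbp2a* (198 CPM in ligamentocytes, 3584 CPM in those cells), more tropomyosin *tpm1* (83.0 CPM in ligamentocytes, 922 CPM in those cells) and more *tnc*, the tenascin-C gene (19.8 CPM in ligamentocytes, 118 CPM in those cells). *tnmd* was present in both, at 1296 CPM in ligamentocytes and 255 CPM in the cluster's other cells.

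**Figure D4:**
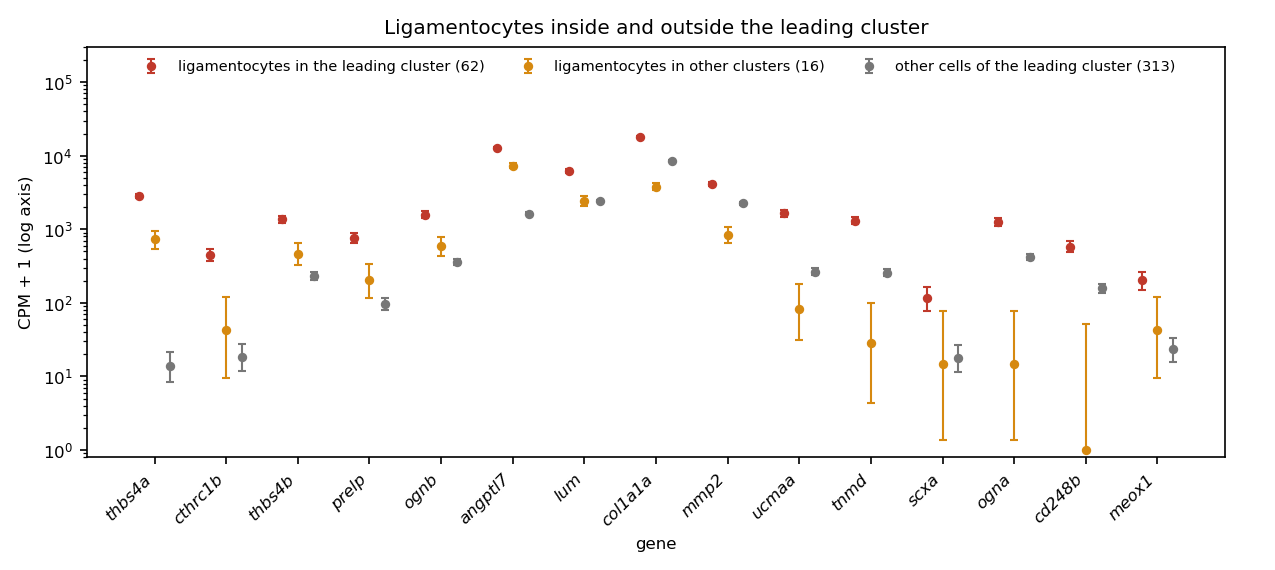
Levels (CPM + 1, log axis, exact 95% Poisson intervals) of 15 genes in the 62 ligamentocytes of the leading cluster (red), the 16 ligamentocytes of other clusters (orange) and the other 313 cells of the leading cluster (grey). Outside the cluster *thbs4b*, *ognb*, *prelp* and *angptl7* were within a factor of 4 of the inside level, whereas *tnmd*, *ogna* and *cd248b* were near 0.

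Ligamentocytes were last compared with 3 classes of similar cells, filled in the order given here. The first was 130 cells with at least 2 *tnmd* UMIs, no *thbs4a* and fewer than 2 *prg4b* and *vcana* UMIs (median 4741 UMIs). The second was 73 cells with at least 2 summed *prg4b* and *vcana* UMIs (median 3122). The third was 77 of the remaining cells, with at least 2 *coch* UMIs and fewer than 2 *thbs4a* UMIs (median 3800). The *tnmd* and *thbs4a* levels of *coch*+ cells are thus partly set by this selection. The *tnmd*+ class was the nearest in place, with 58.5% of it in the leading cluster, against 7.79% of the *coch*+ cells and none of the *prg4b*+ or *vcana*+ cells. It was not pure, since 26.2% of its cells had *bglap* and its *bglap* level was 11622 CPM.

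Collagen I was at like levels in ligamentocytes and *tnmd*+ cells, a class that held *bglap*+ cells, though the intervals of both genes given here were apart. *col1a1a* had 14646 CPM in ligamentocytes and 12367 CPM in *tnmd*+ cells, and *col1a2* 23638 CPM in ligamentocytes and 21713 CPM in *tnmd*+ cells. Within the leading cluster, *col1a1a* had 17775 CPM in the 62 ligamentocytes and 8528 CPM in the other 313 cells. *col1a2* had 27700 CPM in those ligamentocytes and 15990 CPM in those other cells. *aspn* had 991 CPM in ligamentocytes and 1128 CPM in *tnmd*+ cells. *scxa* was not at a like level, with 92.0 CPM (62.1 to 131) in ligamentocytes and 13.3 CPM (6.06 to 25.2) in *tnmd*+ cells, nor were *meox1* (166 CPM in ligamentocytes, 7.36 CPM in *tnmd*+ cells), *cthrc1b* (353 CPM in ligamentocytes, 22.1 CPM in *tnmd*+ cells) and *thbs4b* (1169 CPM in ligamentocytes, 156 CPM in *tnmd*+ cells).

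Against superficial chondrocytes, *ogna* and *ucmaa* had 0 UMIs in the 73 *prg4b*+ or *vcana*+ cells, and *tnmd* had 3.73 CPM there. Some genes high in ligamentocytes were as high or higher in those cells: *fn1b* had 617 CPM in ligamentocytes and 586 CPM in *prg4b*+ or *vcana*+ cells, and *myoc* 638 CPM in ligamentocytes and 847 CPM in *prg4b*+ or *vcana*+ cells. The calcification inhibitor *mgp*, by contrast, had 181 CPM in ligamentocytes and 10206 CPM in *prg4b*+ or *vcana*+ cells. Against *coch*+ cells, *thbs4b* had 1169 CPM in ligamentocytes and 448 CPM in *coch*+ cells, and *lum* had 5341 CPM in ligamentocytes and 273 CPM in *coch*+ cells.

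**Figure D5:**
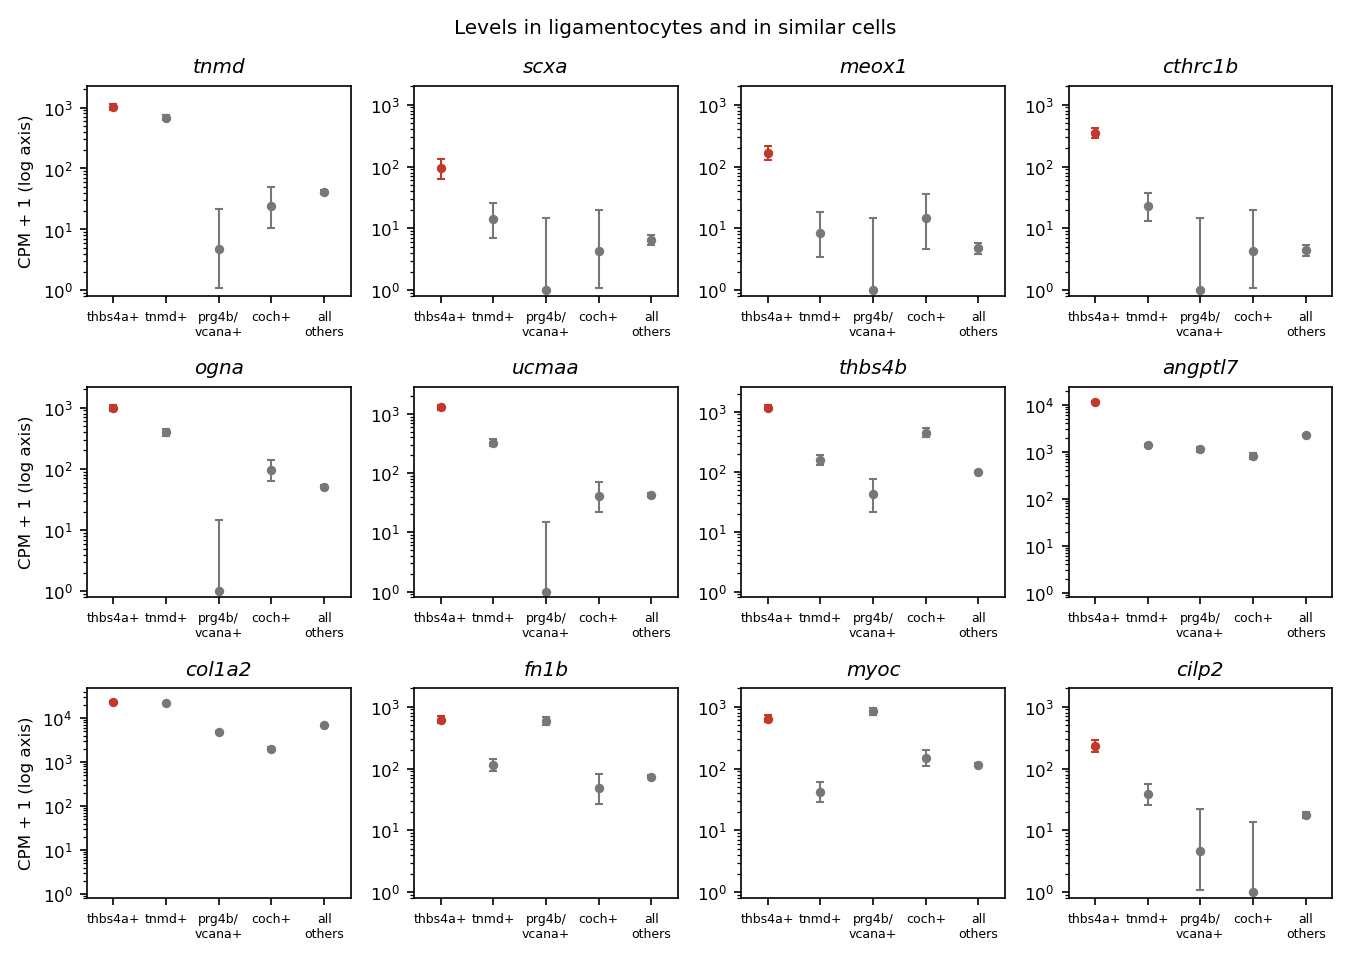
Levels of 12 genes (CPM + 1, log axis, exact 95% Poisson intervals) in the 78 ligamentocytes (red), in *tnmd*+ cells without *thbs4a*, *prg4b*+ or *vcana*+ cells and *coch*+ cells, and in all other kept cells (grey). *col1a2* had 23638 CPM in ligamentocytes and 21713 CPM in *tnmd*+ cells. In *prg4b*+ or *vcana*+ cells, *fn1b* lay within the interval of ligamentocytes and *myoc* above it. *scxa*, *meox1* and *cthrc1b* were above all 3 classes in ligamentocytes. *tnmd* chose the *tnmd*+ class, and its level in *coch*+ cells is partly set by the selection.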

How the data were processed

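Both libraries were made with 10x 3′ v2 chemistry. The authors ran Cell Ranger 3.0.0 against GRCz11, extended by the reporter sequences and annotated with a revised transcript set, and deposited raw UMI counts per gene and called barcode. The deposited counts carry no filter on genes per cell. Reads, images and injury experiments were not used here. Cells were kept by the study's limits of 500 to 2000 genes and at most 5% of UMIs on the 12 mitochondrial genes. The study also took out *epcam*+ epithelial and *pecam1*+ endothelial cells, which was not done here, so its cell set differs. No doublet caller was run, so doublets were treated only by the upper gene limit. Counts were summed over cells and scaled to CPM with Python 3.11.15, numpy 2.4.6, scipy 1.17.1 and pandas 2.3.3. Folds are log2 of the ratio after adding 10 CPM to both sides, genes of at least 5 CPM over kept cells were compared, and at least 2-fold was called. Folds and calls took a gene with 0 UMIs at 0 CPM before the 10 CPM were added. A floor of 3 UMIs over the group was used only where a bound is given, such as a least fold. Symbols shared by several features (216 symbols) were not named.

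Clusters were made with Seurat 5.3.0 under R 4.3.3 (2000 variable features, 38 dimensions, resolution 0.9). The counting and clustering steps were run on simulated data as a check of the code only. The simulated counts held no spread between cells of a group, so they cannot show how many calls rest on 1 cell. Members and gene lists were chosen with earlier results of these data known. Named genes were the markers and reporters, the 25 highest and 10 lowest folds in at least 25% of ligamentocytes or other cells, and list genes, called ones first; genes from the cluster and class comparisons that lie outside this rule, such as *mgp*, *tnc*, *tpm1* and *hspb1*, were chosen after their values were seen. Alternatives varied the *thbs4a*, *prg4b* and *vcana*, gene and mitochondrial limits, the comparison cells, the added CPM, the low-value filter, depth and the clustering.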

Additional observations from a re-analysis of the deposited data

How the results depend on the processing

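The choice of *thbs4a* threshold mattered most. With at least 1 *thbs4a* UMI there were 159 cells, 102 genes higher and 59 lower, with *scxa* in 16.4% and *tnmd* in 40.3% of them, and the log2 folds of *tnfrsf11b* (1.57), *ifitm5* (0.11), *cldni* (0.31) and *epcam* (0.18) turned positive. With at least 5 UMIs there were 44 cells, 691 genes lower and *tnmd* in 77.3%. Adding 1 CPM instead of 10 gave 581 genes higher and 1504 lower. With *epcam*+ cells left out of the other cells only, 11 genes called lower had positive log2 folds: *mmp30* 0.68, *cldn1* 1.83, *cd74a* 0.73, *cdh1* 1.36, *itga6b* 0.14, *cd74b* 0.56, *itgb4* 1.30, *cldni* 1.82, *krt5* 2.67, *cd44a* 0.28 and *epcam* 0.61. The ligamentocyte with 10 *epcam* UMIs stayed in this comparison. Without it, *krt5* had 129 CPM in the remaining ligamentocytes and 175 CPM in other cells with fewer than 2 *epcam* UMIs. *epcam* had 28.3 and 34.7 CPM there, so neither gene was higher in those ligamentocytes. *cldni* (135 and 69.3 CPM) and *cdh1* (9.43 and 3.43 CPM, 3 UMIs in those ligamentocytes) were still higher. The rest of the list was not tested without that cell. *scxa* was in 7.69% of ligamentocytes at a minimum of 2 UMIs, and its expected share was 10.6% at 1000 UMIs and 15.8% at 2000 UMIs, while that of *tnmd* was 47.8% at 1000 UMIs. The leading cluster held 67.9% of ligamentocytes at a resolution of 1.5 and 88.5% with 20 dimensions. In choices added after seeing the data, ligamentocytes of the leading cluster alone had *tnmd* in 80.6%, 349 genes higher and 635 lower, and ligamentocytes without the *epcam*-rich cell gave 273 genes higher and 487 lower. Of 133 named genes that were called, 129 kept their direction and 62 a 2-fold difference with at least 1 UMI, against 122 and 112 without *epcam*+ cells. Under each of the other alternatives all 133 kept their direction and at least 125 a 2-fold difference. Sparse genes such as *scxa* and *mkxa* are limited by depth, 1 pooled library allows no replicate error, and genes called lower with 0 UMIs (121 of 443) depend on the added CPM. With such genes at the bound set by 3 UMIs, the median log2 fold over all genes compared was −0.01, and that of the IGF, FGF, Wnt and PDGF list was −0.01 in place of −0.28.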
